A study of Mus musculus with 13 samples.

Results

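The genes described here encode enzymes that remove superoxide and peroxides: the superoxide dismutases Sod1, Sod2 and Sod3, catalase (Cat), the glutathione peroxidases Gpx1, Gpx3 and Gpx4, and the peroxiredoxins Prdx1 and Prdx2. These 9 genes were chosen by name, with earlier results of these data known. The array's annotation gave 8251 genes a probe set of their own, and it assigned 13 of the 12422 probe sets to the 9 genes. Both Prdx1 probe sets were also assigned to Gm21399, so their signal is given as Gm21399/Prdx1 and cannot be ascribed to either gene. All samples were whole aortae of c57/Bl6 mice that were moved from a cycle of 12 h light and 12 h dark into constant darkness. After 36 h of darkness, tissue was collected at 4 h intervals for 48 h. The aortae of 6 mice made up the pool of each of 12 circadian times (CT), from CT18 to CT62. All pools came from constant darkness, so there was no group kept in light and dark. The labels name no other treatment and no genetically altered group, and they give 2 weeks of acclimation. Arrays of the CT18 pool were run in duplicate and averaged as 1 pool, since the labels do not say whether the RNA came from separate animals. The labels name neither sex nor age.

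Superoxide is formed as a by-product of respiration and by oxidases of the vessel wall, where it consumes nitric oxide, the dilator released by endothelium. Superoxide dismutases turn it into hydrogen peroxide: SOD1 in the cytosol, SOD2 in mitochondria, and SOD3 outside the cell, where in arteries it is bound to the matrix around smooth muscle cells. Catalase, in peroxisomes, breaks hydrogen peroxide down directly, glutathione peroxidases reduce peroxides with glutathione, and peroxiredoxins do so with electrons from thioredoxin. Many genes of this kind are induced through antioxidant response elements, the DNA sites bound by NRF2.

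RefSeq promoters of mouse assembly GRCm38.p6 were at hand for 8 of the 9 genes, in 11 windows; Sod3 had none there. The 250 bases before each start site were searched on both strands. The E-box CACGTG, bound by CLOCK and BMAL1, was found in 0 of the 11 windows, against 6.02% of the 32851 promoters of the table. The D-box TTANGTAA, bound by PAR bZIP factors, and TAGGTCA, a site of REV-ERB and ROR receptors, were also found in 0 of 11, against 2.06% and 2.23%. The antioxidant response element TGACNNNGC was found upstream of Prdx1 and Sod1, against 10.2% of promoters in the table. These 2 windows are shown because they hold the only such matches among the members, with the matched bases in capitals, on the strand opposite to the gene. The first lies at chr4:116685349-116685598 and the second at chr16:90220512-90220761, both on the plus strand.
Prdx1: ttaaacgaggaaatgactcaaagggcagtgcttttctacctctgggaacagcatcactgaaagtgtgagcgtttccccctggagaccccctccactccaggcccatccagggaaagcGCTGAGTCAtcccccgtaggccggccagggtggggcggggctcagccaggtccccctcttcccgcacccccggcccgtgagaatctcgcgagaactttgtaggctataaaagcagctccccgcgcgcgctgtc
Sod1: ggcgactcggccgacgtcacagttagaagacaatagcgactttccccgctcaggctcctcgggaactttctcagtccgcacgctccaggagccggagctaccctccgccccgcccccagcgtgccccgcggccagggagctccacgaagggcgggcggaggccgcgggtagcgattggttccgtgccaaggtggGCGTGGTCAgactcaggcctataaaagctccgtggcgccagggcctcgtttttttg
In Prdx1 the match overlaps an AP-1 site (TGANTCA), a motif in 6.75% of promoters. The Sp1 site GGGCGG was found in 8 of the 11 windows and the CCAAT box CCAAT in 7, against 32.7% and 33.8% of promoters. Some genes had more than 1 window, so the windows are not independent. By gene, the Sp1 site was found in 6 of the 8 and the CCAAT box in 5. A match is a description of the letters and not evidence of binding.

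Values are the authors' intensities on a linear scale, which had the same trimmed mean of 200.2 on every array. Their medians lay between 70.4 and 87.6, and 21.3% to 24.2% of values on an array were at or below 0. Intensities under a floor of 36.7 were set to it before log2 was taken, and 7453 probe sets passed a filter on their mean level. The vascular smooth muscle markers were well expressed: Acta2, smooth muscle actin, measured 3783 to 6848, and Myh11, smooth muscle myosin, 1351 to 1957. The endothelial cadherin Cdh5 measured 440 to 919. The fat markers Adipoq, the adipokine adiponectin, and Ucp1, the uncoupling protein of brown fat, measured 8123 to 9898 and 5898 to 10111, so fat markers were well expressed too. Summed signals of 12 skeletal muscle markers ranged from 6241 to 32096 and those of 8 thymocyte markers from 507 to 4563 between pools. In pooled tissue, a smaller share of one cell type and less RNA per cell cannot be told apart.

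Of the 13 probe sets of the members, 12 passed the filter and were above the floor on all 13 arrays. The exception was 1 of the 3 Prdx2 probe sets, which was at or below 0 on every array (-43.8 to -4.10) and gave no level.

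No member passed the test for a 24-h rhythm. A cosine of 24-h period was fitted with limma to the 12 pools, and 0 of the 12 probe sets had an adjusted p below 0.05, against 26 of 7453 (0.349%) over the whole array. Their adjusted p values ran from 0.611 (Sod2) to 0.958 (the brighter Gm21399/Prdx1 probe set). At an unadjusted p below 0.05 the count was also 0 of 12, where 9.96% of all probe sets passed. Over the 12 probe sets the median fitted amplitude, the distance from mean to peak, was 0.10 on the log2 scale, against 0.18 over all probe sets. These medians were not compared at like brightness. The smallest amplitude among the 26 rhythmic probe sets was 0.35. The upper 95% limit of the amplitude lay below that value for 9 of the 12 probe sets. For the dim Cat, Gpx1 and dim Prdx2 probe sets it lay above, so a rhythm as large as the smallest one called would be allowed there.

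**Figure D1:**
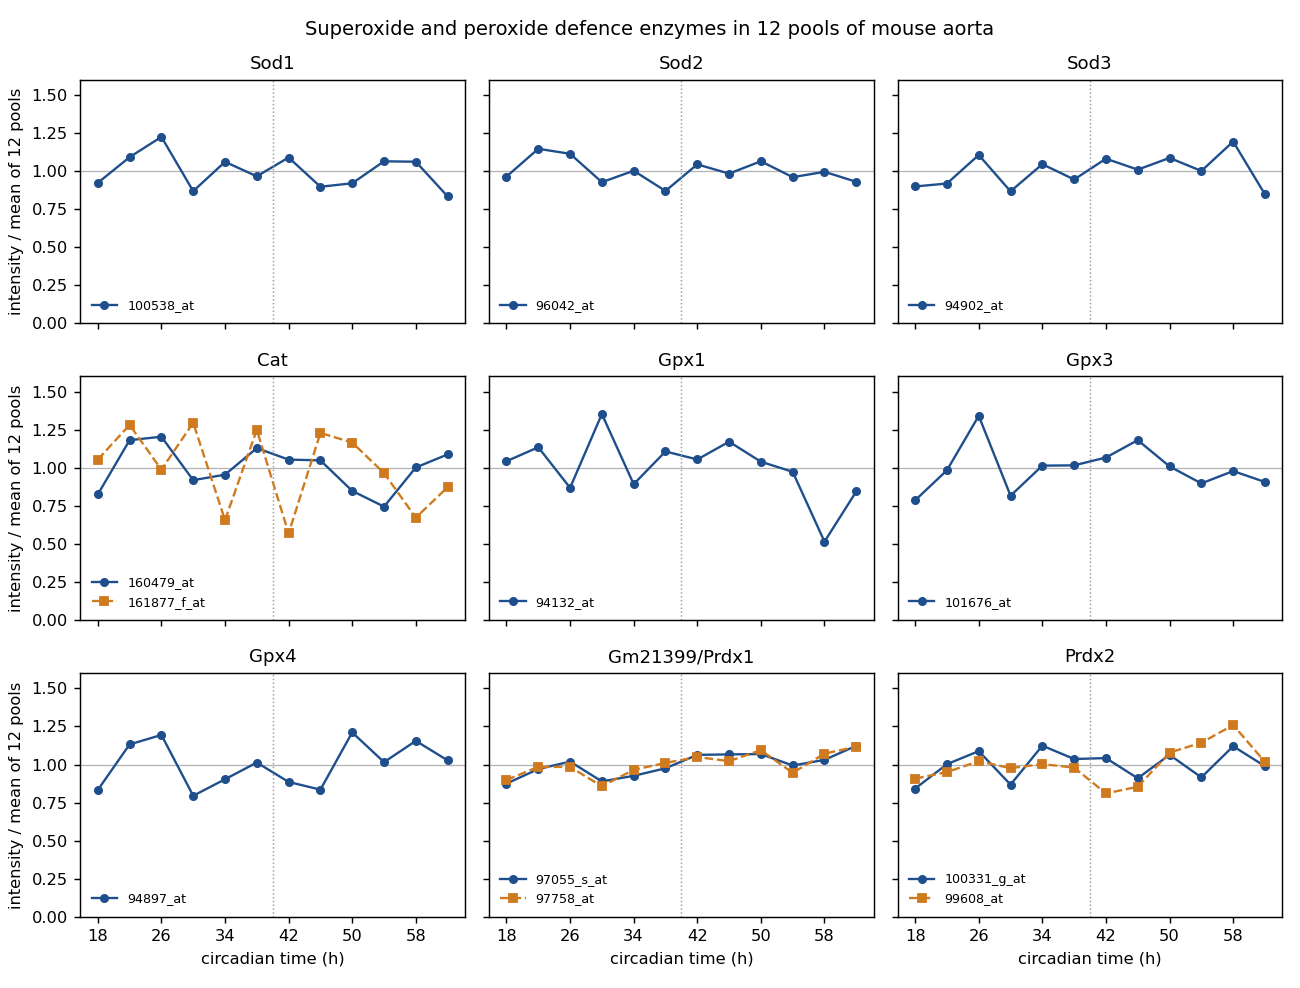
Intensity of each member at 12 circadian times (x axis, hours), divided by the mean of its 12 pools (y axis, ratio, from 0); each point is 1 pool of 6 mice, squares with dashed lines are a dimmer probe set of the same gene, and the dotted line separates the first from the second day. Most profiles stay within a narrow band around 1, with Gpx1 at CT58 and the dim Cat probe set farthest from it.

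Among the dismutases, Sod1, the copper and zinc enzyme of the cytosol, measured 2699 at its lowest (CT62), 3279 at the median and 3964 at its highest (CT26). The pools of circadian time 2 were 2978 at CT50 and 3964 at CT26, and those of circadian time 10 were 3436 at CT58 and 3433 at CT34, so agreement 24 h apart differed between times. Its fitted amplitude was 0.06 ± 0.07 (log2, SE), with an upper 95% limit of 0.24, which is a peak to trough ratio of 1.40. Sod2, the manganese enzyme of mitochondria, had the narrowest spread of the dismutases, at 1488 (CT38), 1693 and 1962 (CT22). Its highest pools on the first day were CT22 and CT26, with 1962 and 1906, and on the second day CT50 and CT42, with 1822 and 1787. Sod2 had the smallest rhythm p of the members. Its amplitude was 0.11 ± 0.05 with an upper limit of 0.23, and the fitted peak was at CT0.07 (limma, adjusted p = 0.611). Sod3, the extracellular enzyme of the arterial matrix, measured 1114 (CT62), 1322 and 1569 (CT58). Its highest and lowest values were thus in neighbouring pools 4 h apart. Its amplitude was 0.06 ± 0.07 with an upper limit of 0.25.

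Cat had a bright and a dim probe set. The bright one measured 1259 (CT54), 1734 and 2036 (CT26). Its pools of circadian time 6 measured 1259 on the second day and 1553 on the first, and those of circadian time 22 measured 1773 and 1997. The fit gave an amplitude of 0.11 ± 0.08, a peak at CT18.5 and an adjusted p of 0.798 (limma). The dim one measured 112 (CT42), 200.2 and 254 (CT30), and its duplicate arrays at CT18 read 160 and 253. Over the 12 pools the 2 probe sets were not correlated (Pearson r = 0.02, permutation p = 0.964; Spearman rho = 0.08, permutation p = 0.801), with r = 0.07 without CT18 and CT54, and -0.36 and 0.25 within the second and the first day. They were 1 of 3 pairs of probe sets for the same gene compared in this way.

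The glutathione peroxidases differed in how much they varied. Gpx1, the enzyme of cytosol and mitochondria, measured 196 (CT58), 397 and 516 (CT30). CT58 stood below every other pool, the next being CT62 with 322. Its pools at circadian time 10 measured 196 on the second day and 340 on the first. The fitted amplitude of 0.23 ± 0.13 (upper limit 0.58, adjusted p = 0.690, limma) fell to 0.08 when CT58 was left out. Gpx3, the secreted form found in plasma, measured 6721 (CT18), 8516 and 11463 (CT26), with an amplitude of 0.11 ± 0.08. Gpx4, which reduces lipid peroxides within membranes, measured 1922 (CT30), 2452 and 2927 (CT50). The pools of circadian time 2 were its highest on both days, with 2927 on the second and 2887 on the first. CT58 was next on the second day with 2793, and CT22 on the first with 2737. The fitted amplitude was 0.09 ± 0.08 (adjusted p = 0.866, limma).

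Gm21399/Prdx1 measured 3374 (CT18), 3882 and 4332 (CT62) by its brighter probe set and 2987 (CT30), 3476 and 3893 (CT62) by its dimmer one. PRDX1 and PRDX2 are abundant peroxidases of the cytosol. The 2 probe sets moved together (Pearson r = 0.90, permutation p = 7e-05, adjusted over 3 pairs 0.00021; Spearman rho = 0.89, permutation p = 0.00033), with r = 0.81 without CT18 and CT30, and 0.82 and 0.84 within the second and the first day. Their fitted amplitudes of 0.03 ± 0.05 and 0.04 ± 0.05 had upper limits of 0.17 and 0.18, the lowest of the members. Prdx2 measured 1660 (CT18), 2008 and 2215 (CT34) by its bright probe set, with an amplitude of 0.05 ± 0.06. Its dim probe set measured 124 (CT42), 152 and 193 (CT58), with an amplitude of 0.18 ± 0.09 (adjusted p = 0.640, limma). These 2 probe sets had r = 0.36 (permutation p = 0.256, adjusted 0.384) and rho = 0.46 (permutation p = 0.132, adjusted 0.199), with r = 0.29 without CT18 and CT30, and 0.35 and 0.78 within the second and the first day.

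**Figure D2:**
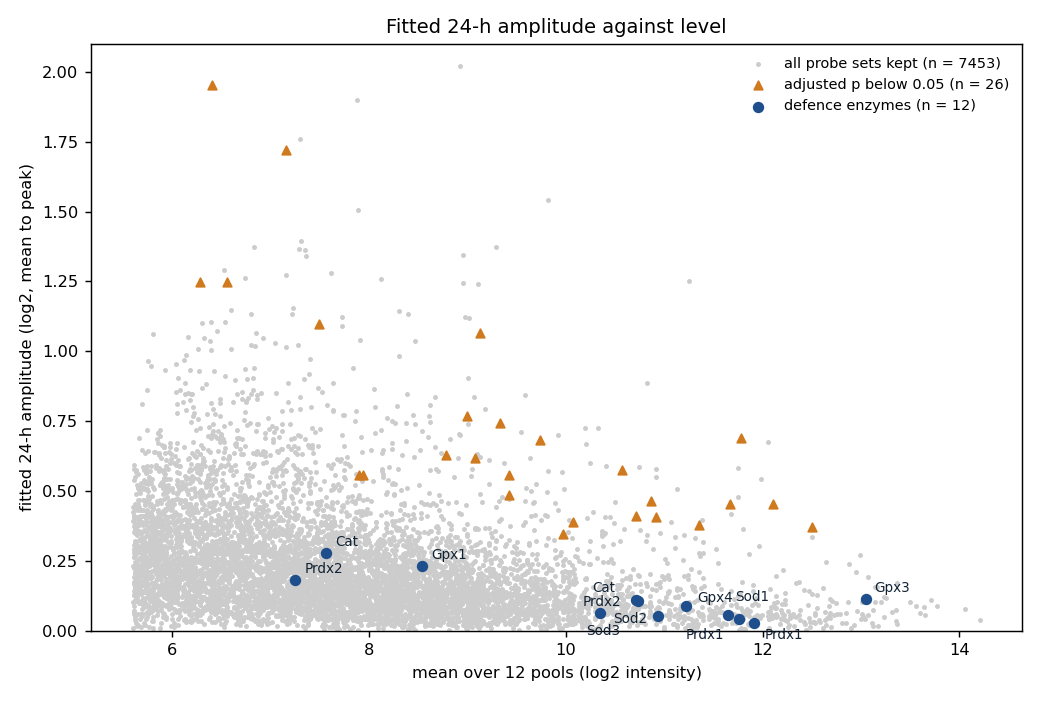
Fitted 24-h amplitude (y axis, log2, mean to peak) against the mean level over 12 pools (x axis, log2 intensity) for the 7453 probe sets kept (grey), the 26 past the threshold (triangles) and the 12 of the defence enzymes (dots, Prdx1 standing for Gm21399/Prdx1). All 12 dots lie below the lowest triangle, at 0.35.

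Variation between pools was small for most members. The SD over pools, on the log2 scale, had a median of 0.17 over the 12 probe sets, against 0.33 over all probe sets, and 10 of the 12 were below that median. The lowest were those of the brighter and the dimmer Gm21399/Prdx1 probe set and Sod2, at 0.11, 0.11 and 0.12, with 3.58%, 3.78% and 4.01% of probe sets below them. The highest were those of the dim Cat probe set and Gpx1, at 0.41 and 0.35. These ranks were not set against probe sets of like brightness.

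The duplicate arrays of CT18, which may or may not share their animals, differed by a median of 0.15 (log2) over the 12 probe sets, against 0.19 over all probe sets kept. Sod3 measured 1339 and 1025 on the 2 arrays, a difference of 0.39, where its SD over the 12 pools was 0.16. Gpx4 measured 2244 and 1783. A difference between 2 values and an SD are unlike measures, and the Sod3 gap was narrower than the range of its pools, 1114 to 1569. The lower CT18 array, at 1025 for Sod3 and 1783 for Gpx4, still lay below the lowest pool of each, 1114 and 1922. The gap was widest for the dim Cat probe set (160 and 253) and narrowest for the bright one (1413 and 1378).

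CT18 and CT30 were low for many members. Of the 8 members with a mean above 10 on the log2 scale, all but Gpx1, 8 had CT18 or CT30 among their 2 lowest pools. The same held for 59.4% of the 695 probe sets above that level and for 27.4% of all probe sets. This count was chosen after seeing the data. After quantile normalization it held for 5 of the 8 members and for 36.7% of the 695. The mean intensity of all probe sets was lowest on these arrays, at 280 and 273 for CT18 and 275 for CT30, against 286 to 297 elsewhere. Their median intensity was among the highest, at 82.5 and 87.2 for CT18 and 87.6 for CT30. On the log2 scale, centred on each probe set's mean, the average at CT18 and CT30 was -0.17 and -0.12 over the members, -0.08 and -0.11 over the 695 bright probe sets, and 0.06 and 0.08 over all probe sets kept. The part of these differences between arrays in the low values was not tested.

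Whether levels drifted with longer darkness was asked by comparing the second day (CT42 to CT62) with the first (CT18 to CT38), with the 24-h cosine as covariate. No member passed, and neither did any other probe set (0 of 7453, 0%; limma, lowest adjusted p 0.416). At an unadjusted p below 0.05 there were 2 of the 12 members' probe sets, against 562 of 7453 (7.54%) in all. Both belonged to Gm21399/Prdx1. By the brighter probe set it averaged 4080 ± 167 on the second day and 3635 ± 214 on the first (SD, n = 6 pools each), and by the dimmer one 3659 ± 213 on the second day and 3311 ± 206 on the first. Each probe set exceeded its first-day value in 6 of 6 pairs of pools 24 h apart, a pattern shared by 150 of 7453 probe sets (2.01%). That count restates the values of the day test and is not further support. The 2 probe sets moved together over the pools (Pearson r = 0.90), so they are not separate observations. By the brighter probe set the largest step was at circadian time 18, with 4102 at CT42 and 3374 at CT18, and the smallest at circadian time 2, with 4122 at CT50 and 3932 at CT26. The fitted differences were 0.17 ± 0.06 and 0.14 ± 0.06 (log2, SE), or 12.3% and 10.6%. Their adjusted p was 0.640 and 0.643 (limma; unadjusted 0.0137 and 0.0399).

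**Figure D3:**
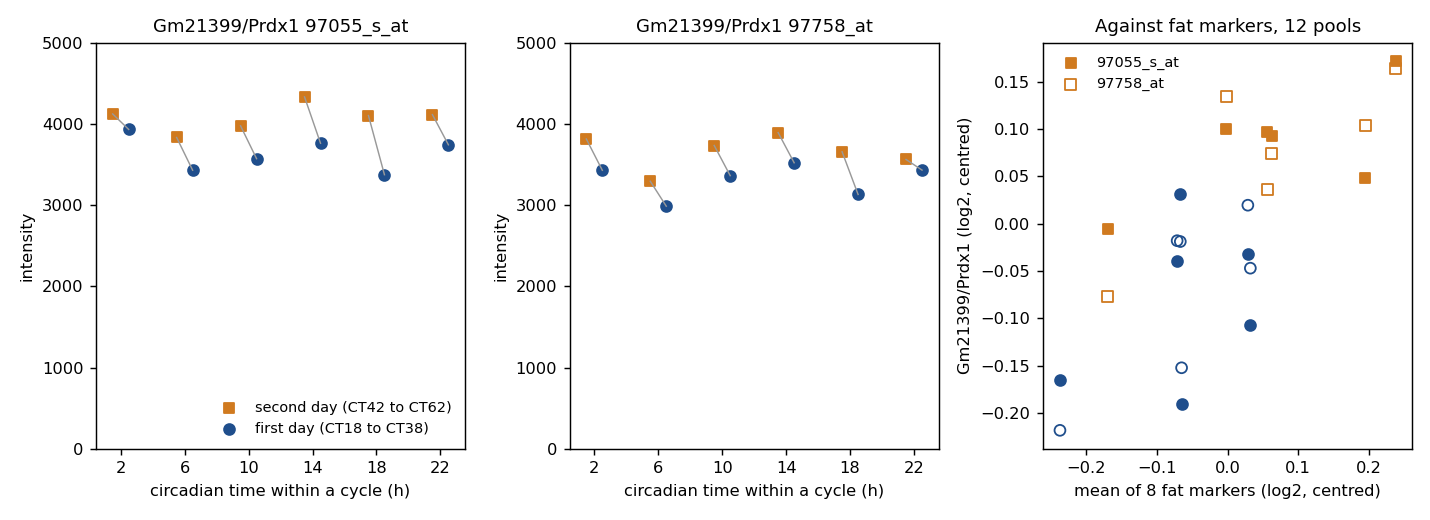
Left and middle: intensity of the brighter and the dimmer Gm21399/Prdx1 probe set (y axis) at each circadian time within a cycle (x axis, hours), second day (squares) beside first day (circles), each point 1 pool, lines joining pools 24 h apart. Right: both probe sets (filled brighter, open dimmer; log2, centred) against the mean of 8 fat markers (log2, centred), with the second day's pools in squares; all 6 second-day points of the left panel lie above their partners.

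The means of the fat and of the erythroid marker list were higher on the second day, a shift that was not tested. Those of the other lists shifted by -0.21 (skeletal muscle) to 0.05 (Schwann cells and nerve; log2). Of the fat markers, Adipoq and Lep had their highest pool on the first day, at CT34 and CT18, and the others on the second. The mean of the 8 fat markers kept, of 10 listed, was 0.13 higher on the second day than on the first (log2), and their summed intensity ranged from 39984 to 47755 on the second day and from 36805 to 43502 on the first. None of the 8 annotated fat markers was at the floor in all pools. Over the 12 pools, r with this mean was 0.84 for the dimmer probe set (permutation p = 0.00085, adjusted over 120 relations 0.0558; rho = 0.78, permutation p = 0.00453, adjusted 0.159) and 0.66 for the brighter one (permutation p = 0.0205, adjusted 0.265; rho = 0.62, permutation p = 0.0353, adjusted 0.366). Within the second and the first day r was 0.82 and 0.79 for the dimmer probe set, and 0.70 and 0.39 for the brighter one, over 6 pools each. Without CT30 and CT62, r was 0.66 and 0.35. With the fat markers as a covariate the day difference was 0.05 for the dimmer probe set and 0.10 for the brighter one, with adjusted p = 0.990 for both (limma). The same covariate also lowered other members' day differences. Bright Cat went from -0.10 to -0.30, Gpx3 from 0.04 to -0.15, Gpx4 from 0.07 to -0.12 and bright Prdx2 from 0.02 to -0.12. Gpx1 went up, from -0.22 to 0.061. The part of fat in the Gm21399/Prdx1 day difference was not tested.

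The mean of the erythroid markers, 3 of 11 listed, was 0.16 higher on the second day than on the first (log2), and their summed intensity ranged from 7187 to 12316 on the second day and from 7054 to 9898 on the first. One of the 5 annotated erythroid markers was at the floor in all pools. Over the 12 pools, r with this mean was 0.42 for the brighter Gm21399/Prdx1 probe set (permutation p = 0.175, adjusted 0.623; rho = 0.45, permutation p = 0.141, adjusted 0.629) and 0.49 for the dimmer one (permutation p = 0.104, adjusted 0.492; rho = 0.48, permutation p = 0.117, adjusted 0.618). Within the second and the first day r was 0.51 and 0.30 for the brighter, and 0.36 and 0.59 for the dimmer. Without CT42 and CT46, r was 0.23 and 0.48. With the erythroid markers as a covariate the day difference was 0.16 and 0.13, with adjusted p = 0.672 and 0.709 (limma). Red cells are rich in Prdx2 and Cat. For the bright Prdx2 probe set r with the erythroid mean was 0.32 (permutation p = 0.308, adjusted 0.740; rho = 0.27, permutation p = 0.390, adjusted 0.829), with 0.08 and 0.56 within the second and the first day and 0.55 without CT42 and CT46. For the bright Cat probe set it was 0.29 (permutation p = 0.352, adjusted 0.752; rho = 0.32, permutation p = 0.309, adjusted 0.772), with 0.58 and 0.12 within the days and 0.23 without CT42 and CT46. The dim probe sets of both genes went the other way. For the dim Prdx2 probe set r was -0.51 (permutation p = 0.0888, adjusted 0.492), with -0.81 and 0.31 within the second and the first day and -0.11 without CT42 and CT46. For the dim Cat probe set it was -0.23 (permutation p = 0.458, adjusted 0.817), with 0.04 and -0.49 within the days and -0.15 without CT42 and CT46. The part of red cells in the Prdx2 and Cat levels was not tested.

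The other members differed between days by -0.26 to 0.11 on the log2 scale, and none had an unadjusted p below 0.05. Sod2 averaged 1705 ± 86.9 on the second day and 1718 ± 184 on the first (SD, n = 6 pools each), a difference of -0.01 with a 95% interval of -0.15 to 0.14. Sod1 differed by -0.06 (-0.28 to 0.15) and Sod3 by 0.11 (-0.09 to 0.31). The widest intervals were those of the dim Cat probe set, -0.26 (-0.72 to 0.19), and of Gpx1, -0.22 (-0.60 to 0.16), which averaged 356 ± 88.1 on the second day and 406 ± 67.9 on the first. Gpx4 exceeded its first-day value in 5 of 6 pairs and differed by 0.07 (-0.20 to 0.34). Gpx3 differed by 0.04 (-0.22 to 0.29), and Prdx2 by 0.02 (-0.17 to 0.22) and 0.06 (-0.21 to 0.33) by its bright and dim probe sets.

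**Figure D4:**
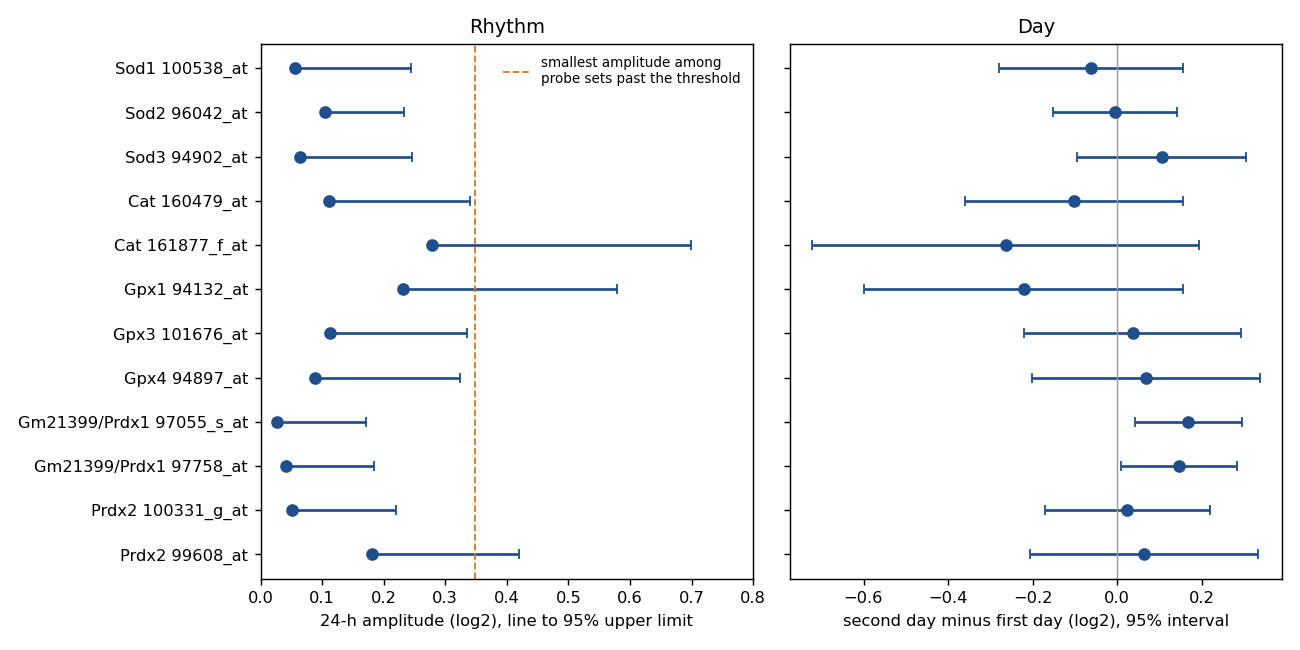
Left: fitted 24-h amplitude of each probe set (dots, log2) with a line to its upper 95% limit, and the smallest amplitude among probe sets past the threshold (dashed, 0.35). Right: second day minus first day (dots, log2) with 95% intervals; those of the Gm21399/Prdx1 probe sets lie above 0 and the others span it.

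Members were also compared with each other, using the brightest probe set of each, in 36 pairs over 12 pools. Of these, 27 had a positive r and 0 passed after adjustment over the 36, with 9 at an unadjusted p below 0.05. No such counts were made for other pairs of probe sets of like brightness, so they are not read as a trait of the members. The closest pair was Sod3 and Prdx2 (r = 0.69, permutation p = 0.0147, adjusted 0.178; rho = 0.76, permutation p = 0.00522, adjusted 0.188), with r = 0.73 without CT58 and CT62, and 0.59 and 0.85 within the second and the first day. Sod1 and Sod2 had r = 0.62 (permutation p = 0.0305, adjusted 0.178; rho = 0.64, permutation p = 0.0298, adjusted 0.234), with 0.45 without CT26 and CT62, and 0.35 and 0.79 within the days. Gpx1 ran against Prdx2 (r = -0.58, permutation p = 0.0354, adjusted 0.178; rho = -0.52, permutation p = 0.0835, adjusted 0.234), with r = -0.36 without CT30 and CT58, and -0.64 and -0.68 within the days. Within a pool, the probe sets of a pair were read from the same array, so they share its scaling. After quantile normalization 23 of the 36 were positive.

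Of 120 relations between the 12 probe sets and 10 lists of cell type markers, 0 passed after adjustment and 18 had an unadjusted p below 0.05. Other probe sets were not compared with the lists, so the share expected for any probe set is not known. Gpx3 followed the vascular smooth muscle markers most closely (r = 0.84, permutation p = 0.00093, adjusted 0.0558; rho = 0.80, permutation p = 0.00295, adjusted 0.159). The relation was r = 0.78 within the second day and 0.95 within the first, 0.79 without CT26 and CT62, and 0.69 after quantile normalization. Gpx3 was highest at CT26, with 11463, where the summed smooth muscle markers, 8 of 10 listed, were also highest, at 20201; they ranged from 14039 to 17444 on the second day and from 14123 to 20201 on the first. None of the 9 annotated smooth muscle markers was at the floor in all pools. The summed endothelial and fibroblast markers were also highest at CT26, at 3802 and 21844. Gpx3 had r = 0.63 with the endothelial, 0.46 with the fibroblast and -0.65 with the thymocyte markers (adjusted permutation p = 0.265, 0.542 and 0.265). Sod1, Sod2 and Sod3 had r = 0.63, 0.65 and 0.59 with the smooth muscle markers (adjusted permutation p = 0.265, 0.265 and 0.304). The part of tissue composition in these relations was not tested.

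By the same measure, the 2 genes closest to each member among 6660 probe sets of 1 gene each, over 12 pools, had r from 0.84 to 0.96. They were Fmc1 and Atp5a1 for Sod1, Pdhb and Gatd3a for Sod2, Capns1 and Cyc1 for Sod3, Sult1a1 and Mrpl39 for Cat, Trim21 and Dpep3 for Gpx1, Utrn and Cst3 for Gpx3, Npdc1 and Fmc1 for Gpx4, Tpd52l2 and Scp2 for Gm21399/Prdx1, and Cox5b and Gstk1 for Prdx2. These are the highest of many values over few pools, so they are given as a description only.

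Around these enzymes, 107 further genes of superoxide production and antioxidant defence were listed, of which 62 were measured above the filter. In none of the 8 lists did a gene pass for a 24-h rhythm, 0 of 62, against 0.349% of all probe sets. At an unadjusted p below 0.05 there were 8 of 62 (12.9%), against 9.96% of all. The median amplitude was 0.16 against 0.18. Of 10 genes of glutathione and NADPH supply, 4 had an unadjusted p below 0.05: Me1, the cytosolic malic enzyme, Pgd and Taldo1 of the pentose phosphate pathway, and Tkt, transketolase. Their fitted peaks lay from CT23.4 (Pgd) through CT0.65 (Me1) and CT2.9 (Taldo1) to CT3.5 (Tkt), and each had its lowest pool at CT38. Me1 measured 1632 at CT38, 2817 at the median and 3581 at CT46, with an amplitude of 0.32 ± 0.08 (limma, adjusted p = 0.232). Pgd measured 426 at CT38, 1004 and 1822 at CT50, with an amplitude of 0.57 ± 0.16 (adjusted p = 0.330).

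In the other lists the gene with the smallest p did not pass either. Among 13 glutathione transferases measured, Gsta3 reached 0.69 ± 0.17 with its peak at CT17.6 (adjusted p = 0.227, limma), with 203 at CT54, 414 and 765 at CT62. Among 10 regulators, Nfe2l2, which encodes NRF2, had 0.25 ± 0.08 and CT13.8 (adjusted p = 0.402), with 467 at CT26, 593 and 851 at CT62. Among 10 genes of the thioredoxin and glutaredoxin system, Txnrd1, the reductase that recycles cytosolic thioredoxin, had 0.29 ± 0.10 and CT18.9 (adjusted p = 0.467). Xdh, xanthine dehydrogenase, led 5 superoxide and nitric oxide sources with 0.27 ± 0.11 (adjusted p = 0.562), and Ccs, the copper chaperone of SOD1, led 4 copper supply genes with 0.34 ± 0.17 (adjusted p = 0.648). Selenot, a selenoprotein, led 6 genes of selenium supply with 0.13 ± 0.06 (adjusted p = 0.614), and Gpx5 led 4 other peroxidases with 0.36 ± 0.18 (adjusted p = 0.659), with its lowest pool, CT62, below the floor. Between days 0 of 62 passed in either direction, and 3 of 62 (4.84%) had an unadjusted p below 0.05, against 7.54% of all; these were Pgd (0.46 ± 0.19, log2, SE), Txn2, mitochondrial thioredoxin (0.22 ± 0.09), and Selenot (0.17 ± 0.07).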

How the data were processed

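The authors deposited an intensity for each probe set on each array, linear and already scaled; software and build: not given in the sources used here. The table held 12488 probe sets, and 66 hybridisation controls were left out. GEO's platform annotation gave 10833 probe sets 1 gene, 396 several and 1193 none. Intensities below the 20th percentile of positive values (36.7) were set to that floor, log2 was taken, the CT18 arrays were averaged, and probe sets at or above the 40th percentile of mean level (5.60, log2) were kept. Rhythm (moderated F test on cosine and sine) and day terms came from limma 3.58.1 under R 4.3.3 (eBayes with trend) and adjusted by Benjamini-Hochberg over 7453 probe sets. With 1 pool per time point, p-values rest on how far pools scatter about the curve. The upper limit of an amplitude comes from the joint 95% region of the 2 cosine terms. Correlations used 100000 permutations, two-sided. The procedure was tested on simulated data. The members and lists were chosen with earlier results of these data known. All probe sets of the members are named, with the 1 gene of smallest p per list (up to 4 where any passed) and the 2 genes most like each member; Pgd, Tkt, Taldo1 and Txn2 were named, and the pairs of members described were picked, after their values were seen. Precision is limited by how many arrays there are. Alternatives changed the floor, transform, filter, scaling, test, covariates and pools.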

Additional observations from a re-analysis of the deposited data

How the results depend on the processing

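No member passed for a rhythm in 27 alternatives or for a day difference in 28, with 0 past the threshold in each. At an unadjusted p below 0.05 for a rhythm, the dim Prdx2 probe set passed in 2 of the 27, the dim Cat one in 1 and the others in 0. The count of rhythmic probe sets over the array, 26, was 12 with an inverse hyperbolic sine, 4 with no filter, 5 with median centring, 4 without the trend, 4 with ordinary tests, 10 with skeletal muscle, thymocyte and atrial covariates, 7 with the erythroid and 13 with the fat covariate, and 8 to 40 when a time point or CT18 array was left out. The day count, 0, was 1 with skeletal muscle, thymocyte and atrial covariates and 0 to 2 with a time point left out (2 without CT42). The cause of these moves was not tested. Gm21399/Prdx1 kept its higher level on the second day in all 28 alternatives, with 0.10 to 0.25 for the brighter and 0.05 to 0.22 for the dimmer probe set (log2), and an unadjusted p below 0.05 in 26 and 16 of them.

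Some values changed direction, with neither side past the threshold. The day difference (log2) of Gpx3 (0.04) was -0.029 after quantile normalization, -0.036 with the erythroid and -0.15 with the fat covariate, and -0.044 to 0.13 with a time point left out. That of Sod2 (-0.01) was 0.074 with median centring, 0.016 with the smooth muscle covariate, and -0.033 to 0.022 with a time point left out. That of Sod1 (-0.06) was 0.017 with median centring. With the fat covariate Gpx1 (-0.22) was 0.061, Gpx4 (0.07) -0.12, the bright Prdx2 probe set (0.02) -0.12 and the dim one (0.06) -0.0046. The bright Prdx2 probe set was -0.014 with the erythroid covariate. With a time point left out it ran from -0.031 to 0.064, and Gpx4 from -0.021 to 0.14. Fitted peaks moved by over 6 h for the brighter Gm21399/Prdx1 probe set (amplitude 0.027 with median centring, 0.018 with the erythroid covariate), the dimmer one (0.069, fat), and Sod1 and Gpx3 (0.054 and 0.075, smooth muscle). The smooth muscle covariate was added after seeing the data. Pools could not be paired by replicate number, since in the labels it goes beyond 1 only at CT18. A fit that matched pools 24 h apart by circadian time instead called 0 members.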
